A study of Homo sapiens with 9 samples.

Results

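Of 109960 accessible regions of HepG2 cells on chromosomes 1 to 22, 22353 were distal regions without an AP-1 consensus near a summit that were called with the control siRNA and with neither siRNA against INO80. HepG2 is a human liver cancer cell line. Open DNA was mapped by ATAC-seq, which uses the insertion of sequencing adapters by a transposase, 72 h after transfection with 50 nM of a non-targeting siRNA (NTG), siINO80#1 or siINO80#2. There were 3 replicates per siRNA and 1 peak list per siRNA for all 3, so that no value has an SD between replicates and the comparisons below are descriptions of 3 lists. The depletion of INO80 was not measured in these files.

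The members were chosen by merging the peaks of the 3 lists and keeping regions with an NTG peak and no peak of either siINO80 list, more than 1 kb from any annotated transcript start, and without an exact 7 bp AP-1 consensus (TGACTCA or TGAGTCA) within 100 bp of a summit. The presence of peaks thus selected them, and their absence from the siINO80 lists is not a finding. Of 26900 regions in NTG alone, 23618 were distal, and 1265 of these were removed for an AP-1 consensus. The 3 members closest to the limit lay 1002, 1002 and 1004 bp from a start, and the 3 regions just outside it 1000, 997 and 997 bp. The members made up 53.4% of the 41824 distal regions without AP-1 that had an NTG peak, whereas 39.9% of all 67487 regions with an NTG peak were in NTG alone. The same count gave 47.8% (47.3 to 48.3) of 39240 regions for siINO80#1 alone and 38.3% (37.7 to 38.8) of 27617 for siINO80#2 alone. Regions found in 1 list only were therefore common with every siRNA. The lists of NTG, siINO80#1 and siINO80#2 held 69730, 69333 and 53113 peaks, and these shares were not adjusted for list size.

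INO80 is the ATPase of a complex that moves nucleosomes and exchanges histone variants. Distal open regions include enhancers, where transcription factors hold nucleosomes away from DNA, and sites of CTCF, the zinc finger protein that anchors chromatin loops. In liver cells, FOXA proteins are pioneer factors that bind nucleosomal DNA, HNF4A is the nuclear receptor of hepatocyte identity, and AP-1 is the FOS and JUN dimer of the response to growth factors and stress.

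Member summits with 50 bases on either side are given here, on the plus strand of hg19, because the results turn on 2 motifs: that of FOXA, for which the strong members and the DNA beside them were within counting error of each other, and that of CTCF, for which they were not. Neither comparison was matched for base composition. In the 3 strongest members with 1 placement in the genome, capitals mark the closest match to the 12-letter CTCF core consensus, 2, 1 and 2 substitutions away from it. In the others capitals mark the exact match of the named motif.
chr4:190011477-190011577, strongest: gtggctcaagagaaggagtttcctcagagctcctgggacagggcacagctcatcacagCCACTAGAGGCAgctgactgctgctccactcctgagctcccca
chr3:23094193-23094293, next: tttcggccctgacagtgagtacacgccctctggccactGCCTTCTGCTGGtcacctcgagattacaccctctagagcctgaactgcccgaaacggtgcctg
chr14:87427595-87427695, next: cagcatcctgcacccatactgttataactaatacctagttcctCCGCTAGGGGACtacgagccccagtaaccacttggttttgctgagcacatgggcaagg
chr13:96632901-96633001, CTCF core: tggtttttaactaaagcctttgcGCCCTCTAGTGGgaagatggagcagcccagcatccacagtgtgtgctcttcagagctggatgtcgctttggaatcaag
chr11:107469427-107469527, CTCF (GGNGGCAG): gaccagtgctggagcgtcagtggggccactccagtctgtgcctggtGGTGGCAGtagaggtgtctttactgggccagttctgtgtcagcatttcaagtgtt
chr11:14883428-14883528, FOXA (TGTTTAC): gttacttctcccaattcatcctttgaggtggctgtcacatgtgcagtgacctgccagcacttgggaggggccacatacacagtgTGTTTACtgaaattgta
chr4:102610542-102610642, HNF4A (CAAAGTCCA, here on the minus strand): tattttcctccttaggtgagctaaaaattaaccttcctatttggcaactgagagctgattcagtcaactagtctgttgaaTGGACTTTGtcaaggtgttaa
chr2:201662327-201662427, CEBP (TTGCGCAA): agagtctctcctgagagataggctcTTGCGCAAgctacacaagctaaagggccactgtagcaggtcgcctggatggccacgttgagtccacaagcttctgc
chr20:38894936-38895036, YY1 (AAGATGGCG): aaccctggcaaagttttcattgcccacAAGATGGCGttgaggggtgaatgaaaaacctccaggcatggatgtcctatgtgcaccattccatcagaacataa

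The member with the FOXA motif lay in an intron of PDE3B, 23.7 kb from the nearest protein-coding start, that of CYP2R1, a vitamin D 25-hydroxylase. It had 29 reads at its summit over a background of 3.82, a fold enrichment of 6.23. The member with the HNF4A motif lay in an intron of BANK1 and had 27 reads over 3.82. The CTCF core lay in an intron of UGGT2, with 32 reads over 3.82. These values are a description, since the strength of an NTG peak comes from the comparison that chose the members.

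The members were weak peaks. The median fold enrichment over the local background was 2.91, with a range of 1.74 to 8.92, and the median member stood at the 29.8th percentile of the NTG list. The median number of reads at the summit was 15, with a range of 12 to 69, over a median background of 4.06. Distal regions without AP-1 that were in all 3 lists had a median of 29 NTG reads. A single summit was present in 96.6% of members, the median width was 212 bp, and 40.3% (39.7 to 41.0) stood on the genome background of the list. A −log10 q of at least 5 was reached by 10.1% (9.70 to 10.5). The share of distal NTG regions that were members was 81.7% (80.7 to 82.7) among NTG peaks of the 10th to the 20th percentile and 1.06% (0.724 to 1.55) above the 90th percentile. The members above the 70th percentile numbered 684, or 3.06%. The siINO80#1 and siINO80#2 lists rested on 1.43 and 1.44 times the reads of NTG, and their genome backgrounds were 5.16 and 5.34 reads against 3.82. The part of this difference in the loss of calls was not tested.

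**Figure D1:**
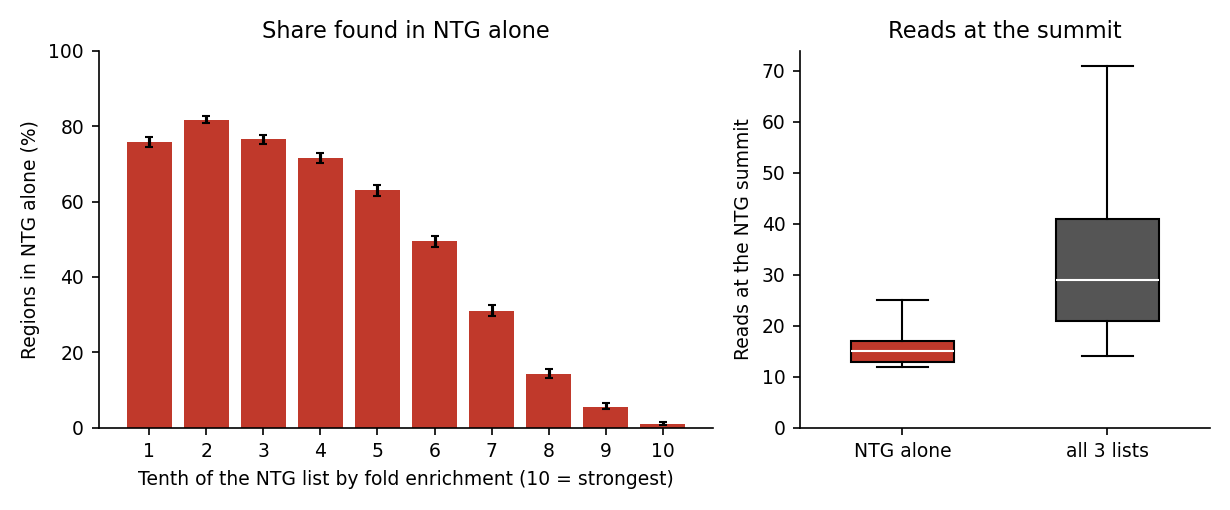
Left, the percent of distal NTG regions without AP-1 that were found in NTG alone, by steps of 10 percentiles of the NTG list (10 on the axis is the strongest step), with 95% Wilson intervals; the share was highest, 81.7%, in step 2 and was 1.06% in step 10. Right, reads at the NTG summit of regions in NTG alone and in all 3 lists, with boxes from the 25th to the 75th percentile, a line at the median (15 and 29 reads) and whiskers at the 5th and 95th percentiles.

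A missing call did not always mean that no peak was near. A siINO80 peak lay within 100 bp of 3.02% (2.81 to 3.26) of members, within 500 bp of 11.01% (10.6 to 11.4) and within 1 kb of 16.3% (15.8 to 16.8). The median distance was 6889 bp (6751 to 7052). A region of all 3 lists lay within 1 kb of 3.71% (3.47 to 3.96) of members. The regions are therefore called here regions found in NTG alone, and reads of the siINO80 libraries under them were not analysed here.

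The 3 members of highest fold enrichment each had 1 placement in the genome. The strongest, chr4:190011440-190011626, was intergenic, with 42 reads over a background of 3.82 and a fold enrichment of 8.92. It lay 850 kb from FRG1, the nearest protein-coding start, and 0.998 kb from a siINO80 peak. The second, chr3:23093968-23094414, had 45 reads over 4.18 and lay 150 kb from UBE2E2, a ubiquitin-conjugating enzyme. The third, chr14:87427546-87427729, had 41 reads over 3.82 and a siINO80 peak 0.301 kb away. These reads were far more than the 15 of the median member. Of the others among the 10 strongest with 1 placement, 6 had 38 to 57 reads and fold enrichments of 7.94 to 8.46. They included an intron of ERC2, which encodes a presynaptic scaffold protein, with 39 reads, and an intron of CHODL with 38 reads. An intergenic member with 39 reads lay 174 kb from the start of CDC73, the parafibromin gene. Of these strongest members, only that in CHODL held one of the 16 exact motifs searched, that of NFY.

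The FOXA motif stood little above its level in the DNA beside the members. Above the 70th percentile, a cut set after the values had been seen, it was no more frequent than in all members. It was within 100 bp of the summit in 3.81% (3.57 to 4.07) of all members and in 3.25% (3.09 to 3.42) of windows 1 kb to either side of them, a difference of 0.56 percentage points (0.26 to 0.86). It was in 9.61% (9.10 to 10.2) of distal regions without AP-1 found in all 3 lists and in 4.98% (4.85 to 5.11) of all merged regions. Above the 70th percentile of the own list, 24 of 684 members held it, or 3.51% (2.37 to 5.17), against 2.63% (1.91 to 3.62) of their flanks, a difference of 0.88 points (-0.63 to 2.69). There it was in 11.9% (9.04 to 15.4) of 396 regions of siINO80#1 alone, 13.7% (11.3 to 16.5) of 687 regions of the siINO80 pair and 10.6% (9.91 to 11.2) of 8329 regions of all 3 lists. The share in members minus that in siINO80#1 alone was -8.36 percentage points (-12.1 to -5.08), and minus that in all 3 lists it was -7.04 (-8.37 to -5.27). Strength within this stratum was not matched. Its steps 8, 9 and 10, of 10 percentiles each, held 477, 181 and 26 members. They held 2253, 3080 and 2996 regions of all 3 lists. In step 8 the motif was in 4.403% (2.897 to 6.64) of members and 8.39% (7.31 to 9.61) of all 3 lists. In step 9 the shares were 1.66% and 9.38%, and in step 10 they were 0% and 13.4%. The part of strength in the gap was not tested. Below this stratum the share in members went from 3.31% (2.76 to 3.97) in step 1 to 4.84% (3.76 to 6.22) in step 7. Regions of siINO80#2 alone did not have a higher share, as 1 of 94 held the motif, and the share in members minus theirs was 2.44 points (-2.41 to 4.32). A low FOXA share in strong regions was thus seen with NTG alone and siINO80#2 alone, and not with siINO80#1 alone.

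The difference was also read within placement and base composition. With 1 placement, the shares above the 70th percentile were 3.43% (2.30 to 5.10) of 670 members and 9.49% (6.90 to 12.9) of 369 regions of siINO80#1 alone, a difference of -6.05 points (-9.66 to -2.98). From 45% GC the shares were 2.31% and 13.3%, a difference of -11.0 points (-16.5 to -6.49). Under 45% GC they were 5.58% and 10.5%, and the interval of the difference, -4.92 points (-10.4 to 0.09), included 0. Up to the 70th percentile 3.82% (3.57 to 4.08) of members and 4.80% (4.50 to 5.12) of regions of siINO80#1 alone held the motif. Among these members the share was 4.53% (4.17 to 4.92) under 45% GC and 2.97% (2.66 to 3.33) from 45% GC. Flanks had a lower mean GC than summits, 40.5% against 44.6%. The comparison of FOXA between members and flanks was not matched for this, and the part of GC in it was not tested.

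**Figure D2:**
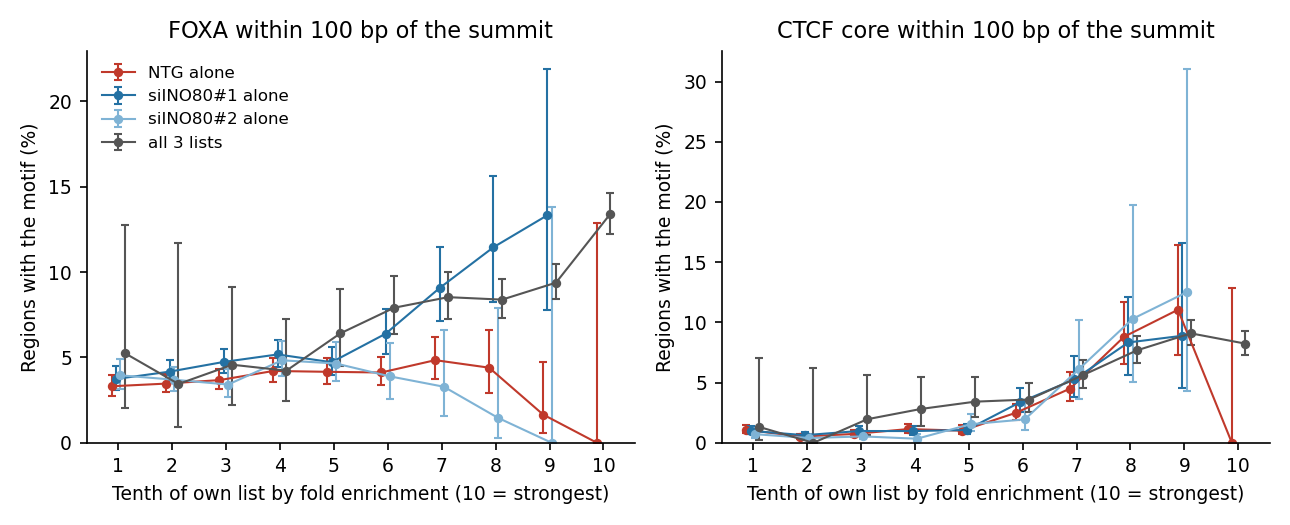
Percent of distal regions without AP-1 with the FOXA motif (left) and the CTCF core (right) within 100 bp of the strongest summit, by steps of 10 percentiles of the own list, with 95% Wilson intervals; points of under 20 regions are not drawn. FOXA stayed between 0% and 4.84% in the members, while the CTCF core was in 8.81% and 11.05% of members in steps 8 and 9; in step 10 each was in 0 of 26 members.

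The CTCF core was frequent in the strong members. An exact match was in 326 members, or 1.46% (1.31 to 1.62), and in 0.0626% (0.0433 to 0.0905) of flanks. All 3 lists held it in 7.15% (6.70 to 7.62) of regions. Above the 70th percentile it was in 62 of 684 members, or 9.06% (7.14 to 11.5), against 0.146% (0.0401 to 0.531) of flanks. The same stratum held it in 9.09% (6.64 to 12.3) of regions of siINO80#1 alone, 10.6% (5.88 to 18.5) of siINO80#2 alone, 8.40% (7.83 to 9.02) of all 3 lists and 5.39% (3.93 to 7.34) of regions shared by both siINO80 lists without NTG. The members differed from siINO80#1 alone by -0.03 points (-3.80 to 3.39) and from all 3 lists by 0.66 points (-1.36 to 3.11), intervals that include 0, and stood above the regions of both siINO80 lists by 3.68 points (0.94 to 6.47). With up to 1 substitution the core was in 31.3% (27.9 to 34.9) of the strong members and in 1.75% (1.18 to 2.60) of their flanks, and also in 33.8% (29.4 to 38.6) of siINO80#1 alone, 26.0% (25.1 to 26.9) of all 3 lists and 20.8% (17.9 to 24.0) of both siINO80 lists. With up to 2 substitutions it was in 57.3% (53.6 to 61.0) of the strong members and 10.5% (8.94 to 12.2) of their flanks, against 54.0% (49.1 to 58.9) of siINO80#1 alone, 46.3% (45.3 to 47.4) of all 3 lists and 36.7% (33.2 to 40.3) of both siINO80 lists. Regions of siINO80#2 alone held it in 34.0% (25.3 to 44.1) with up to 1 substitution and 67.0% (57.0 to 75.7) with up to 2. The corresponding shares were 33.7% and 57.8% for NTG and siINO80#1, and 34.9% and 59.4% for NTG and siINO80#2.

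All 7866 words of 7 letters that occurred in the strong members were ranked by their gap to the flanks. The ranking reused the members and flanks of the CTCF core and was not matched for GC. It is therefore not separate evidence for the core. The word CCACTAG was in 11.99% of these members and in 1.32% of flanks, the largest gap of all. CAGAGGG followed with 11.99% and 2.70%, AGGTGGC with 11.5% and 2.34%, and AGAGGGC with 10.96% and 2.27%. The first word is printed in capitals within the strongest member above. The shorter CTCF motif GGNGGCAG was searched before the core was added. It was in 6.63% (6.31 to 6.96) of all members and 5.59% (5.38 to 5.80) of their flanks. In the strong members its share stood 6.21 points (3.60 to 9.09) above that of their flanks.

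**Figure D3:**
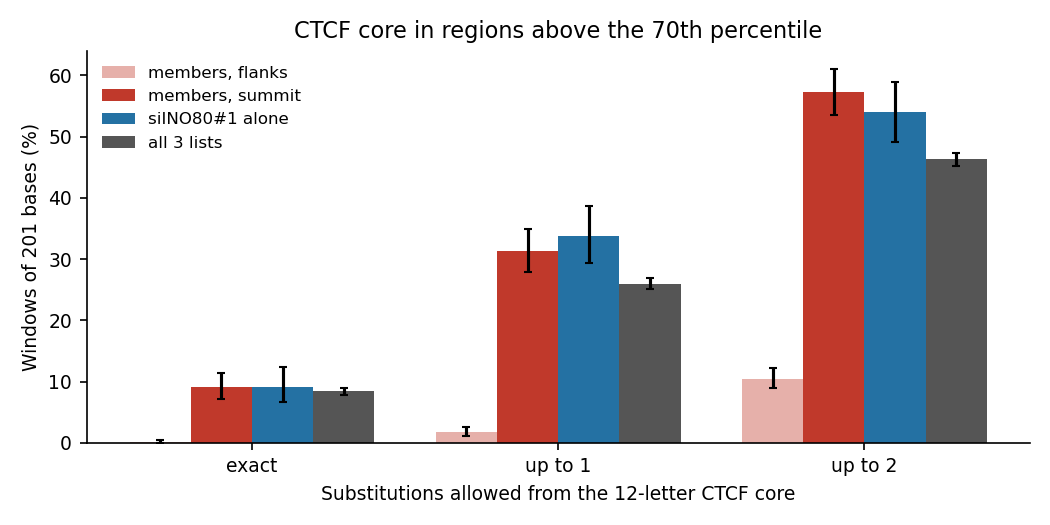
Percent of windows reaching 100 bases to either side with the 12-letter CTCF core, exact or with up to 1 or up to 2 substitutions, in regions above the 70th percentile of their own list, with 95% Wilson intervals. Member summits held the core with up to 1 substitution in 31.3% and their flanks in 1.75%, beside 33.8% of siINO80#1 alone and 26.0% of all 3 lists.

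Of the other factors of liver cells, HNF4A was in 0.66% (0.56 to 0.78) of members, 0.29% (0.24 to 0.35) of flanks and 1.55% (1.34 to 1.79) of all 3 lists. The motif of NR5A2, a nuclear receptor of bile acid synthesis, was in 0.41% (0.34 to 0.50) of members and 0.27% (0.23 to 0.33) of flanks. HNF1 (GTTAATNAT) was in 0.94% (0.83 to 1.08) of members, 0.95% (0.86 to 1.04) of flanks and 2.10% (1.85 to 2.37) of all 3 lists. The CEBP palindrome was in 2 members, or 0.0089%, the same share as in flanks, against 0.052% of all merged regions. Exact motifs of promoter factors were near their level in the flanks. YY1 was in 19 members (0.085%, against 0.074% of flanks) and ETS (CCGGAAGT) in 25 (0.112% against 0.074%). NRF1 (GCGCATGCG) was in 3 (0.013% against 0.011%). All merged regions, promoters included, held these 3 in 0.306%, 0.778% and 0.251%. Among motifs of broadly expressed factors, NFI (CTTGGCA) was in 3.64% (3.404 to 3.90) of members, 2.80% (2.65 to 2.96) of flanks and 3.29% (2.98 to 3.62) of all 3 lists, and TEAD (CATTCCA) was in 4.29% (4.04 to 4.57), 3.61% (3.44 to 3.79) and 5.67% (5.27 to 6.10). The rule removed only exact AP-1 matches near a summit. A word 1 substitution from AP-1 was in 45.6% (44.96 to 46.3) of members and 45.9% (45.5 to 46.4) of flanks, and an exact AP-1 consensus lay elsewhere in 2.02% (1.84 to 2.21) of member regions. Thus most motifs stood a little above the flanks or level with them.

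**Figure D4:**
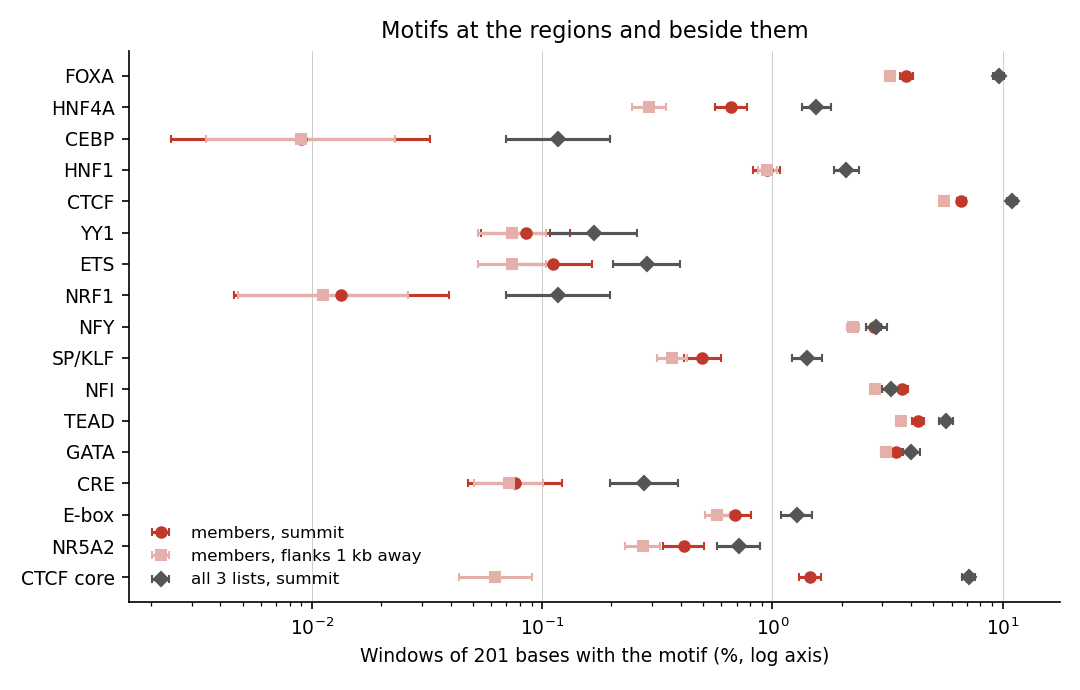
Percent of windows reaching 100 bases to either side (log axis) with each motif at member summits, in windows 1 kb beside them and at the summits of distal regions of all 3 lists, with 95% Wilson intervals. The CTCF core had the widest gap between summit and flanks (1.46% against 0.0626%), while FOXA at the members (3.81%) lay near the flanks (3.25%) and below all 3 lists (9.61%).

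Base composition set the summits apart from the DNA beside them. The mean GC content within 100 bases was 44.6% (SD 8.09 over 22353 members) at summits and 40.5% (SD 9.25 over 44706 windows) at flanks. The median GC was 44.3%, against 43.8% for siINO80#1 alone and 47.8% (47.3 to 47.8) for all 3 lists. No CpG was present in 23.3% (22.8 to 23.9) of members and in 13.6% (13.03 to 14.3) of all 3 lists. The summit sequence had 1 placement in 97.1% (96.8 to 97.3) of members, and 246 members had 10 placements or more.

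Most members lay inside genes. At the summit, 56.4% (55.7 to 57.0) were intronic, 39.8% (39.2 to 40.5) intergenic and 3.81% (3.57 to 4.07) exonic. The intronic share was 56.7% (56.0 to 57.4) for siINO80#1 alone and 55.9% (55.0 to 56.8) for all 3 lists. Protein-coding genes spanned 42.8% (42.2 to 43.5) of members and lncRNA genes alone 16.6% (16.1 to 17.1). The median distance to the nearest start was 16475 bp (16051 to 16787), longer than the 13066 bp (12676 to 13464) of all 3 lists and shorter than the 17740 bp (17317 to 18206) of siINO80#1 alone. More than 100 kb separated 7.18% (6.85 to 7.53) of members from any start.

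The members were unevenly spread over the chromosomes. Chromosomes 2, 6, 14 and 20, picked after their values were seen, held 9926 members, 44.4% of all, on 20.3% of the autosomal length. That is 17.0 members per Mb, against 5.41 on the other 18 autosomes. Chromosome 2 held 5127 members, or 21.1 per Mb, and chromosome 22 held 113, or 2.203 per Mb. The regions of siINO80#1 alone were spread the same way, with 19.98 per Mb on chromosome 2 and 1.09 on chromosome 22. The share of distal NTG regions that were members varied less, between 44.97% (41.5 to 48.5) on chromosome 18 and 60.9% (59.8 to 61.9) on chromosome 2. The median background under the members was 6.50 reads on chromosome 14, 5.90 on chromosome 20, 4.28 on chromosome 2 and 4.22 on chromosome 6. It was 4.80 on chromosome 16 and 4.76 on chromosome 17, which held 7.67 and 5.70 members per Mb, and 3.82 on most other chromosomes. Chromosome 19, with 2.22 members per Mb, also had 4.80, and chromosome 22, the least dense, had 4.400. Both values were above those of chromosomes 2 and 6. These backgrounds were taken under the members alone, 40.3% of which stood on the genome background. They do not measure a whole chromosome, and their relation to density was not tested. HepG2 is aneuploid, and the part of copy number in these densities was not tested. The densest 1 Mb bin, on chromosome 14 from 40 Mb, held 64 members, and 270 of 2897 bins held none.

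**Figure D5:**
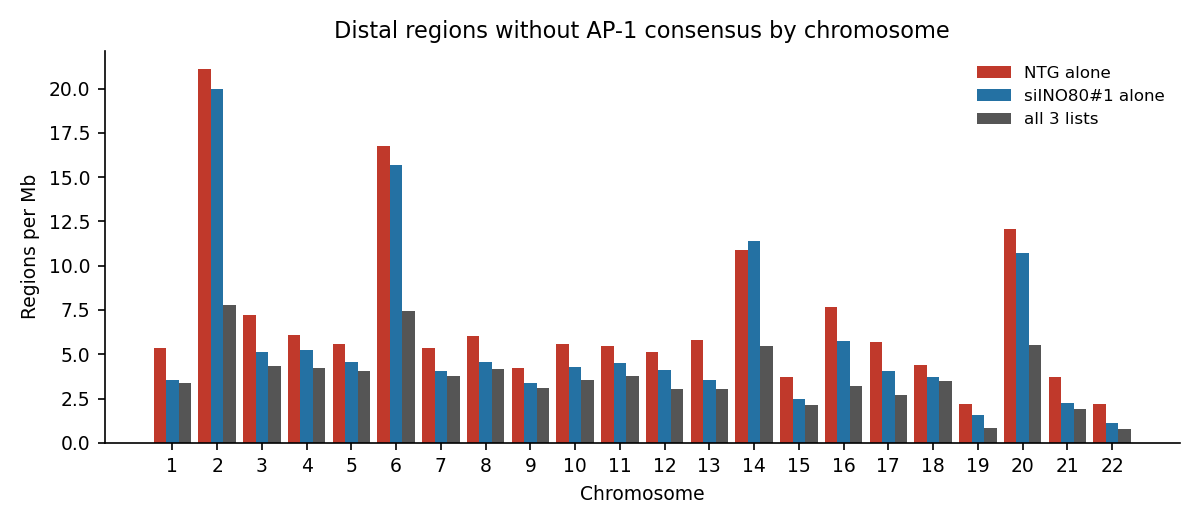
Distal regions without AP-1 per Mb of each autosome, for NTG alone, siINO80#1 alone and all 3 lists. Chromosomes 2, 6, 14 and 20 stood above the others in all these classes, with 21.1, 16.8, 10.9 and 12.1 regions per Mb in NTG alone.

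Genes with many members were long genes of the dense chromosomes. LRP1B, a giant receptor of the LDL receptor family, held 76 members, 75 regions of siINO80#1 alone and 51 of siINO80#2 alone. EYS, a retinal extracellular matrix gene, held 72, 72 and 50. MACROD2, which encodes an ADP-ribose hydrolase, held 61, 77 and 40. ERBB4, the neuregulin receptor, held 59, 59 and 34. In LRP1B, EYS and ERBB4 the counts of NTG alone and siINO80#1 alone were thus nearly equal. FNDC3B on chromosome 3, singled out after its values were seen, held 27 members in 362 kb, but 6 regions of siINO80#1 alone and 2 of siINO80#2 alone. These 27 made up 73.0% (57.0 to 84.6) of the 37 distal NTG regions in the gene, against 50.6% (48.8 to 52.5) on the whole chromosome. Their fold enrichments lay between 2.23 and 4.05, with a median of 2.80, and 0 of them held the FOXA motif or the CTCF core. In all, 4267 of 19229 protein-coding genes, or 22.2%, had a member within their span.

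Liver genes with members in reach were examined by fixed lists, as the number of genes with a member within 50 kb of a start. Over all protein-coding genes of the autosomes this was 50.1% (49.4 to 50.8), against 39.0% (38.3 to 39.7) for regions of siINO80#1 alone and 35.3% (34.7 to 36.0) for regions of all 3 lists. Of 22 liver transcription factors, 16 had a member in reach, or 72.7% (51.8 to 86.8), among them HNF4A, FOXA1, FOXA2, FOXA3 and CEBPA. Regions of siINO80#1 alone reached 10 of these genes and regions of all 3 lists 14. These classes held 18761 and 11923 regions, against 22353 members, and no count of genes in reach is adjusted for class size. Of 29 acute phase and complement genes 24 were reached, or 82.8% (65.5 to 92.4), among them ALB, the serum albumin gene, TTR, HP and C3, while siINO80#1 alone and all 3 lists each reached 16. The strongest member nearest to a gene of the first list lay 263 kb from NR2F2, the nuclear receptor COUP-TFII, with 35 reads. The strongest of the second lay 13.4 kb from MBL2, the mannose-binding lectin gene, with 27 reads and a siINO80 peak 0.448 kb away. At 50 kb the lower bounds of these shares, 51.8% and 65.5%, stood above the 50.1% of all genes, the first by little. The intervals count the genes as independent, although neighbouring genes of a list can be reached by the same member. Within 10 kb the share was 27.3% (13.2 to 48.2) of the liver transcription factors and 41.4% (25.5 to 59.3) of the acute phase and complement genes, against 19.5% of all genes, which the interval of the first list includes. The lists were chosen with earlier results known, and nothing is called particular to them.

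Of 15 apolipoprotein genes 11 had a member in reach, or 73.3% (48.0 to 89.1), including APOA1, APOB and APOE. The strongest lay 6.01 kb from APOC4 with 21 reads. Of 18 coagulation genes 11 were reached, or 61.1% (38.6 to 79.7), including the fibrinogen genes FGA, FGB and FGG, and a member of 28 reads lay 7.86 kb from SERPINC1, the antithrombin gene. Of 24 genes of drug and sterol metabolism 15 were reached, or 62.5% (42.7 to 78.8), including CYP3A4 and CYP8B1. There the strongest member, in an intron of SREBF1, the regulator of lipid synthesis, had 40 reads over 7.29 and held the HNF4A motif. Of 14 genes of gluconeogenesis and the urea cycle 8 were reached, or 57.1% (32.6 to 78.6), and the strongest member, of 20 reads, lay 44.6 kb from TDO2, a tryptophan dioxygenase. The intervals of these shares all included the share of all genes. In the same order, regions of siINO80#1 alone reached 8, 7, 6 and 9 genes of these lists. Regions of all 3 lists reached 6, 10, 8 and 6. For gluconeogenesis and the urea cycle, siINO80#1 alone thus reached more genes than the members, and for the others fewer.

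Among 17 genes of the INO80 complex and H2A.Z, 9 had a member in reach, or 52.9% (31.0 to 73.8), including INO80 itself. The strongest lay 129 kb from INO80D, a subunit gene, with 36 reads. Of 14 AP-1 family genes 8 were reached, or 57.1% (32.6 to 78.6), including FOS, JUN and JUNB. A member 46.5 kb from ATF3 had 26 reads. Regions of siINO80#1 alone reached 7 genes of the INO80 list and 2 of the AP-1 family, and regions of all 3 lists 7 and 5. All 24 long neuronal genes were reached, while regions of siINO80#1 alone reached 21 of them and regions of all 3 lists 19. Of the 22353 members, 653 lay nearest to a gene of this list. The strongest of these members lay in an intron of NRG1 with 30 reads. Of 21 genes of other cell types 7 were reached, or 33.3% (17.2 to 54.6), and the strongest member lay 13.6 kb from CD3E, a T cell receptor subunit, with 20 reads. Of these genes, siINO80#1 alone reached 6 and all 3 lists 7.

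The cell type was checked at marker genes. Of 11 liver markers, 11 had a peak within 1 kb of a start in the NTG list, 11 with siINO80#1 and 9 with siINO80#2, which lacked such a peak at ALB and AFP. Of 11 markers of blood, muscle, nervous system and endothelium the numbers were 1, 2 and 0.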

How the data were processed

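ATAC-seq was analysed for 9 HepG2 samples, 3 per siRNA, with groups taken from the titles. For each siRNA the authors deposited a single list of peaks covering its 3 replicates. Per the labels and the submitters' processing notes, Trim Galore 0.4.1, Bowtie2, SAMtools, MACS2 and deepTools 2.2.4 were used on build hg19; the order of the steps, the filter applied to the lists and any transposase offset are not given in the sources used here. The fold enrichment of a peak is the deposited ratio of reads at the summit plus 1 to the local background plus 1, without an input library, and p and q were deposited as −log10 values. The columns for peak position were deposited in bp. Reads were not used, so the sequencing depth is known only relatively. Whole reads at a summit and the background were solved from the fold enrichment and −log10 p with the formulas of MACS2 (largest error 3.44e-05 in −log10 p, against at least 0.0591 for the next whole number). The lowest background of a list divided by its shortest peak put the reads behind siINO80#1 at 1.43 times and those behind siINO80#2 at 1.44 times those of NTG.

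Peaks were merged at distance 0. Annotation was GENCODE 44 lifted to GRCh37. Motifs were searched on both strands within 100 bases of the strongest summit. Placements were blastn matches of the summit and 50 bases on either side with at least 95% identity over 90% of their length. Intervals are 95% Wilson intervals for shares, Newcombe intervals for differences of shares and order-statistic intervals for medians. They cover counting error alone, and neighbouring regions are not independent. The files used hold a single list per siRNA and no values per library, so no test between siRNAs was made and p-values were not computed.

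The members, the motif list and the gene lists were chosen with earlier results of these data known. The CTCF core, the AP-1 search with 1 substitution, the split at the 70th percentile, the flanks and the ranked words were added after the values had been seen. Named members are the 10 of highest fold enrichment with 1 placement, the strongest member nearest to a gene of each list, and the 3 on either side of the 1 kb limit. Named genes are the 5 that hold the most members, and some genes and members that these rules select are not reported here. The printed sequences are those of the 3 strongest members and of the strongest member with each of FOXA, HNF4A, CEBP, CTCF and YY1. Listed genes that matched no protein-coding gene of the autosomes (10 entries) were not counted, and a masked share was not computed, since the reference is not masked. Recovery of reads (5000 simulated peaks), merging and classes (1288 regions), and motif searches (800 planted motifs) each returned 100% of the simulated answers. Intervals were handled with bedtools 2.31.1 and pandas 2.3.3, sequences with pysam 0.24.0 and blastn 2.17.0, and statistics with scipy 1.17.1 and numpy 2.4.6 in Python 3.11.15; figures were drawn with matplotlib 3.10.9.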

Additional observations from a re-analysis of the deposited data

Results flagged for a closer look

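Among regions above the 70th percentile that were found with 1 siRNA only, the FOXA motif was in 3.51% of the NTG regions, in 11.9% of 396 regions of siINO80#1 alone and in 1.06% of 94 regions of siINO80#2 alone. The NTG regions stood above siINO80#2 alone by 2.44 percentage points (-2.41 to 4.32), an interval that includes 0, so that no departure of siINO80#2 alone is shown. The difference between siINO80#1 alone and siINO80#2 alone was 10.8 percentage points (5.31 to 14.5), an interval that covers counting error alone; with 1 list per siRNA the difference between the siRNAs was not tested.

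Chromosome X lies outside the rule. There, 143 distal regions without an AP-1 consensus were found in NTG alone, which is 39.9% (35.0 to 45.1) of the 358 with an NTG peak, and 0.921 per Mb.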

How the results depend on the processing

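Of 88 values under alternative settings, 59 stayed within the interval of the main value, or within 1.5 times of it for the number of members, and 29 moved. Changes of sign numbered 0. Counts, shares and medians cannot be negative, so only the difference in FOXA share could have changed sign.

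With a −log10 q of at least 5 in all lists, 4821 members were left, or 32.4% of distal NTG regions. Their median percentile was 66.0, the intron share 57.6%, the median GC 47.8%, the FOXA share 4.79%, the CTCF core share 6.20%, the share on chromosome 2 14.6% and the share within 1 kb of a siINO80 peak 3.38%. By construction this setting admits regions with siINO80 peaks under the threshold. With the 53113 strongest peaks of each list, the corresponding values were 14119 members, 46.8%, a median percentile of 41.9, FOXA 4.09%, CTCF core 2.13%, chromosome 2 21.9% and 12.4% within 1 kb. Merging within 500 bp gave 49.0% of distal NTG regions, 22.1% on chromosome 2 and 5.48% within 1 kb. Leaving out members with a siINO80 peak within 500 bp gave 47.6%, 22.1% and 5.95%. With a limit of 2.5 kb to the start site, the intron share was 55.6% and the share on chromosome 2 was 23.5%. With protein-coding start sites members made up 52.3% of distal NTG regions, and with AP-1 searched in the whole region 54.1%. Within 50 bp of the summit, FOXA was in 1.96% and the CTCF core in 1.03%. Within 10 kb, 19.5% of protein-coding genes had a member in reach. The difference in FOXA share above the 70th percentile between members and siINO80#1 alone lay between -11.5 and -5.74 percentage points over the alternatives in the rule, the motif window, the placements and the percentile, and its interval excluded 0 in each. In regions under 45% GC it was -4.92 (-10.4 to 0.09), an interval that includes 0.

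No paired analysis was possible because the 3 replicates of an siRNA share a single list of peaks, so no replicate could be left out either. The lowest member had 12 NTG reads at its summit, and the part of small differences in reads in the loss of calls was not tested. Reads of the siINO80 libraries under the members were not analysed here.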
